A study of Mus musculus with 6 samples.

Results

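The miR-17-92 cluster and its paralogues miR-106a-363 and miR-106b-25 are groups of miRNA hairpins, each group cut from 1 transcript. The 10 mature miRNAs described here are the listed products of these clusters together with miR-92b-3p, a miRNA of a separate locus that has the seed of miR-92a-3p. All 10 were found by name among the 1281 entries of the count table, 507 of them with reads in at least 1 library. They were counted in mouse serum after sciatic nerve allografting, in which 1 cm of donor nerve was placed in a 0.5 cm gap of a recipient. The mice were males of 10 to 12 weeks, and Balb/c animals served as donors. The sample annotation gives the recipients as C57BL/6, whereas the surgical protocol names Balb/c recipients. In 1 arm the immunosuppressant FK506, which acts by inhibiting calcineurin in T cells, was injected under the skin at 1 mg/kg per day, and the other arm had none. All recipients carried a graft, so no library here shows serum without one. Blood was taken at days 3, 7 and 14 into tubes with anticoagulant, and white cells were removed before the fluid labelled serum was kept. The labels state 3 animals for each arm and day, and each has 1 library, without saying whether animals were pooled.

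A miRNA acts through its seed, bases 2 to 8 counted from its 5′ end, which pairs with target mRNAs. The clusters are best known as promoters of cell proliferation and survival, and in mice miR-17-92 is needed for normal B cell development and favours T cell expansion. Members with the miR-17 seed repress cell cycle inhibitors such as p21. miR-92a-3p is abundant in red blood cells and restrains vessel growth, and miR-92b-3p is known from neural progenitors of the mouse cortex. Serum miRNAs are released by blood cells, endothelium and injured tissue, so a level in serum cannot tell fewer releasing cells from less RNA released per cell.

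The mature sequences (RefSeq, GRCm38.p6, 5′ to 3′, seed in capitals) fall into 3 groups, and they are shown because seed and cluster cut across each other. The seed AUUGCAC is shared by 4 members.
miR-92a-3p: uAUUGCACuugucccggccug
miR-25-3p: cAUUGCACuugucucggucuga
miR-92b-3p: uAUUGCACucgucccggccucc
miR-363-3p: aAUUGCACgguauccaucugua
The seed AAAGUGC is shared by 3 members.
miR-17-5p: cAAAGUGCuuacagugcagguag
miR-20a-5p: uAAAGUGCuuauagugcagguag
miR-93-5p: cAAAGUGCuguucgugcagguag
The other 3 members come from the opposite arms of cluster hairpins, and each has a seed of its own.
miR-106b-3p: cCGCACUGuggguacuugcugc
miR-25-5p: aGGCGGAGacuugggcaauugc
miR-18a-3p: aCUGCCCUaagugcuccuucug

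The members lie on 4 chromosomes. miR-17-5p, miR-18a-3p and miR-20a-5p are encoded on the plus strand of chromosome 14, at chr14:115043684-115043706, chr14:115043908-115043929 and chr14:115044183-115044205, in exons of the long noncoding RNA gene Mir17hg. miR-92a-3p has 2 precursors of identical mature sequence, Mir92-1 at chr14:115044476-115044496 in the same gene and Mir92-2 at chrX:52741854-52741874, outside any other annotated gene. Its reads therefore cannot be assigned to 1 cluster. miR-363-3p lies beside Mir92-2, at chrX:52741697-52741718. miR-25-3p (chr5:138165332-138165353), miR-25-5p (chr5:138165370-138165391), miR-93-5p (chr5:138165574-138165596) and miR-106b-3p (chr5:138165746-138165767) lie on the minus strand inside Mcm7, a DNA replication licensing gene. There miR-106b-3p is intronic, and the other 3 overlap an exon of at least 1 annotated transcript. miR-92b-3p lies at chr3:89227126-89227147, outside other genes and 38 bases from Mtx1.

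Some members are close enough in sequence for reads to be shared in the authors' matching. Over 21 shared positions miR-92a-3p and miR-92b-3p differ by 2 substitutions, U10C and G21C (base of miR-92a-3p, position from the 5′ end, base of the other). miR-92a-3p and miR-25-3p differ by 3, U1C, C14U and C18U, and miR-17-5p and miR-20a-5p by 2, C1U and C12U. Values of the miR-17 seed group are uncertain to that extent, and miR-17-5p also differs from miR-106a-5p by U10A alone.

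Library totals ran from 4897727 to 5806228 reads. The red cell miRNA miR-486-5p and the entry miR-3107-5p, which holds almost the same count, took 93.8% to 98.0% of each, leaving 103058 to 359061 reads for all other entries. The members held 27245 to 81707 reads per library. That was 9.14% of the reads outside the pair in untreated serum at day 7 and 22.8% to 30.0% in the other 5 libraries. The low share went with a large denominator. Untreated day 7 had 298117 reads outside the pair and FK506 day 14 had 359061, against 103058 to 160163 in the rest. The untreated day 7 library stood apart in 1 more way. Of 9 neuron and glia marker miRNAs, 8 had reads there and miR-137-3p had 0, with a summed count of 9770. In the others 1 to 4 had reads, with sums of 99 to 464, of which miR-128-3p gave 96 to 457. TMM scaling uses a trimmed mean of ratios and takes most miRNAs as unchanged. By it the FK506 day 14 library was the other exception, with an effective size 2.08 times its total, against 0.697 to 1.06 times elsewhere. Results that rest on either library are given with both facts in view, and the ratio of 2 members within a library does not depend on the scaling.

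The members spanned a wide range of abundance, and miR-92a-3p and miR-25-3p made up most of it. Ordered by mean TMM-scaled level in CPM, the count relative to the scaled library size, they ran miR-92a-3p, miR-25-3p, miR-93-5p, miR-106b-3p, miR-92b-3p, miR-25-5p, miR-18a-3p, miR-17-5p, miR-20a-5p and miR-363-3p. Mature miRNAs of 21 to 23 bases give 1 read each, so no length scaling was needed. miR-25-3p exceeded miR-93-5p in 6 of 6 libraries, and miR-92b-3p exceeded miR-25-5p in 6 of 6. miR-93-5p and miR-106b-3p did not separate, each being higher in 3 of 6 libraries. The order of miR-25-5p and miR-18a-3p also changed between libraries, with miR-25-5p higher in 4 and lower in 2. miR-92a-3p exceeded miR-25-3p in 5 libraries and fell below it in FK506 serum at day 14.

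**Figure D1:**
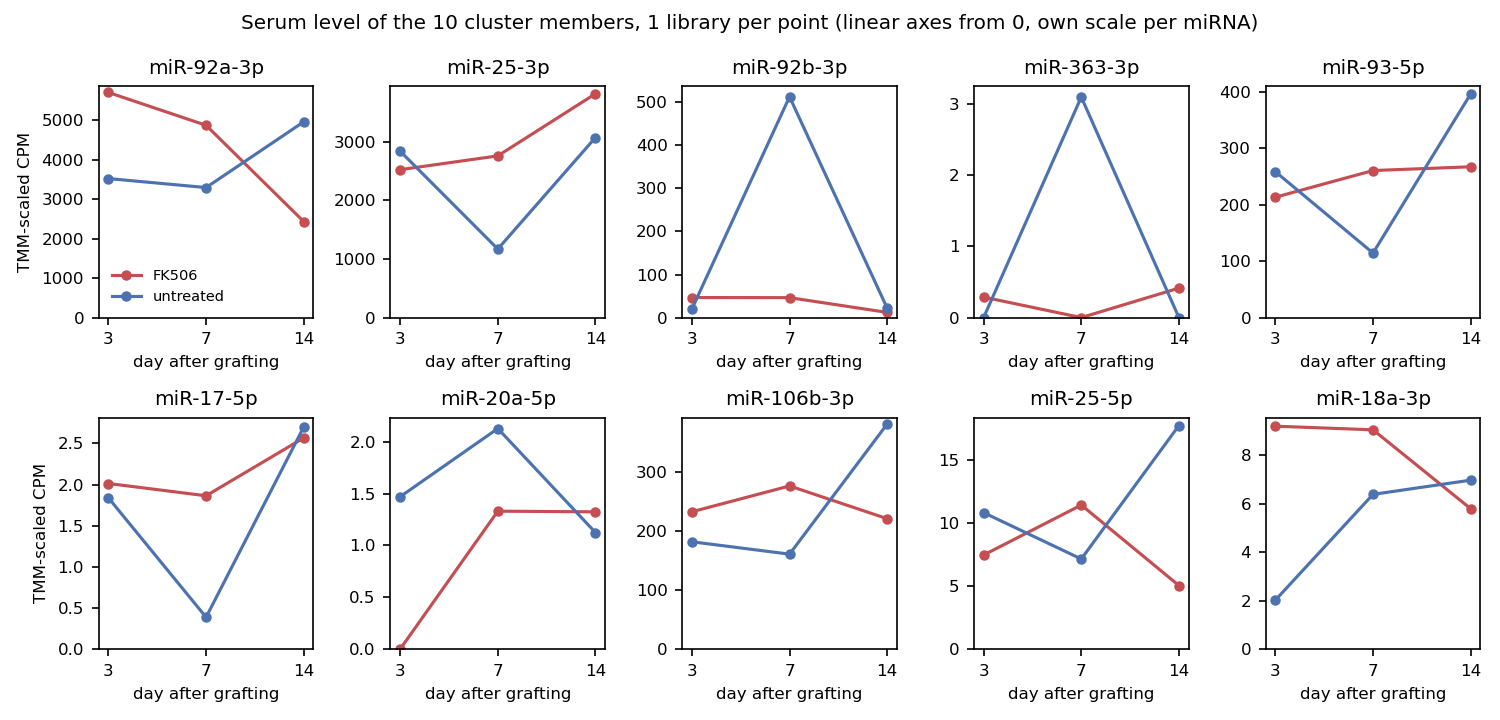
TMM-scaled level (CPM, linear axes from 0 with a scale of their own) of each member against day after grafting, with 1 point per library and lines joining the 3 days of an arm. miR-92b-3p and miR-363-3p peak in untreated serum at day 7, at 513 and 3.10 CPM, while miR-25-3p, miR-93-5p, miR-106b-3p and miR-17-5p have their lowest level there.

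miR-92a-3p, the member of the miR-17-92 and miR-106a-363 clusters with most reads, had the steadiest count. From day 3 to day 14, FK506 serum held 19852, 18312 and 29406 reads of it, and untreated serum 19175, 17035 and 22068. Every library held it at a similar raw count, with FK506 day 14 highest and untreated day 7 lowest. As a share of the library total it ran from 3478 to 5065 CPM, a 1.46-fold range, the 3rd narrowest of the 148 fitted entries with reads in all libraries. The median range of all 153 entries fitted was 6.67-fold. On the TMM scale its range was 2.34-fold, and the level at FK506 day 14 was 2434 CPM, below the other 5 libraries at 3296 to 5707 CPM.

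miR-25-3p, the most abundant product of the Mcm7 cluster, varied more. Its counts over the same days were 8768, 10353 and 46077 in FK506 serum and 15427, 6038 and 13644 in untreated serum. By count FK506 day 14 was far above and untreated day 7 below the other 4 libraries, and the ranges of the 2 arms overlapped. Its level ran from 1168 to 3814 CPM on the TMM scale, a 3.26-fold range, and its share of the library total ranged 6.44-fold. On the TMM scale FK506 day 14, at 3814 CPM, was closer to the next highest library, untreated day 14 at 3069 CPM.

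miR-92b-3p, with the same seed, had 162, 174 and 145 reads in FK506 serum and 109, 2651 and 97 in untreated serum. The day 7 untreated library stood alone, and the other 5 lay between 97 and 174 reads. On the TMM scale the level was 513 CPM in that library and 12.0 to 46.6 CPM elsewhere. miR-363-3p, the X-linked member of this seed family, was also highest there at low counts, with 16 reads in untreated serum at day 7 against 1, 0 and 5 in FK506 and 0 and 0 in the remaining untreated libraries. A count of 0 allowed up to 0.551 to 0.799 CPM (3 reads) in those libraries. Of the neuron and glia markers, miR-9-5p alone had 7683 reads in untreated day 7 serum, 1 read in untreated day 3 and 0 in the other 4 libraries. Whether nervous-system RNA was the source of the miR-92b-3p reads there was not tested.

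The miR-17 seed was represented almost wholly by miR-93-5p, a repressor of cell cycle inhibitors made from the Mcm7 cluster. It had 742, 979 and 3228 reads in FK506 serum and 1407, 591 and 1762 in untreated serum. The count was again highest in FK506 day 14 and lowest in untreated day 7. On the TMM scale miR-93-5p was highest in untreated day 14, at 396 CPM, against 267 CPM in FK506 day 14. miR-17-5p, which gives the older cluster its name, had 7, 7 and 31 reads with FK506 and 10, 2 and 12 without. Its highest and lowest libraries were the same as those of miR-93-5p, by count and on the TMM scale. miR-20a-5p, its neighbour in the cluster, had 0, 5 and 16 reads with FK506 and 8, 11 and 5 without, where the 0 allows up to 0.862 CPM. These 2 and miR-363-3p were the 3 members that never reached 50 reads.

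Of the opposite-arm members, miR-106b-3p was the only one above 100 reads in any library. It had 809, 1038 and 2668 reads in FK506 serum and 989, 831 and 1695 in untreated serum. FK506 day 14 had the highest count and the arms overlapped. On the TMM scale miR-106b-3p was highest in untreated day 14, at 381 CPM, and stood at 221 CPM in FK506 day 14. miR-25-5p had 26, 43 and 61 reads with FK506 and 59, 37 and 79 without, and miR-18a-3p had 32, 34 and 70 with FK506 and 11, 33 and 31 without. Neither exceeded 79 reads in any library.

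Strand use differed between hairpins. Over the 6 libraries the Mir25 hairpin gave 100307 reads of its 3′ arm and 305 of its 5′ arm, so that 99.7% carried the miR-92 seed (exact 95% binomial interval 99.66% to 99.73%). Mir106b gave 8030 reads of miR-106b-3p and 155 of miR-106b-5p, which has the miR-17 seed, or 98.1% from the 3′ arm (97.8% to 98.4%). Mir18 gave 211 reads of miR-18a-3p and 7 of miR-18a-5p, and Mir92b gave 3338 of miR-92b-3p and 0 of miR-92b-5p. In Mir17 the arms were near equal, with 69 reads of miR-17-5p and 74 of miR-17-3p, a share of 48.3% (39.8% to 56.8%). Reads carry no molecular identifiers, so all intervals here cover counting error only.

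The remaining strands of the clusters, with miR-92b-5p and both strands of miR-32, a hairpin whose 5′ arm also has the miR-92 seed, made up 22 entries. Of these 12 had 0 reads in every library, 8 had reads but fewer than 50 in each, and 2 reached 50. miR-19b-3p had 33, 22 and 205 reads in FK506 serum and 50, 80 and 35 in untreated serum. miR-106b-5p had 21, 13 and 76 with FK506 and 16, 11 and 18 without. Both were highest in FK506 day 14. All 22 together held 54 to 366 reads per library.

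Taking all member reads of a library as the whole, the miR-92 seed held 90.9% to 94.7% and the miR-17 seed 2.22% to 4.52%. The first share was near its ceiling because miR-92a-3p and miR-25-3p held most member reads. Without those 2, the miR-92 seed held 63.9% in untreated day 7 and 2.41% to 9.16% elsewhere, and the miR-17 seed 14.5% and 42.1% to 54.96%. From day 3 to day 14 miR-92a-3p supplied 65.3%, 59.2% and 36.0% of member reads with FK506, and 51.6%, 62.5% and 56.0% without. The 4 products of the Mcm7 cluster supplied 34.0%, 40.1% and 63.7% with FK506, and 48.1%, 27.5% and 43.6% without. miR-92b-3p supplied 9.73% in untreated serum at day 7 and 0.177% to 0.562% elsewhere. FK506 day 14 was the 1 library in which the Mcm7 cluster outweighed miR-92a-3p.

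**Figure D2:**
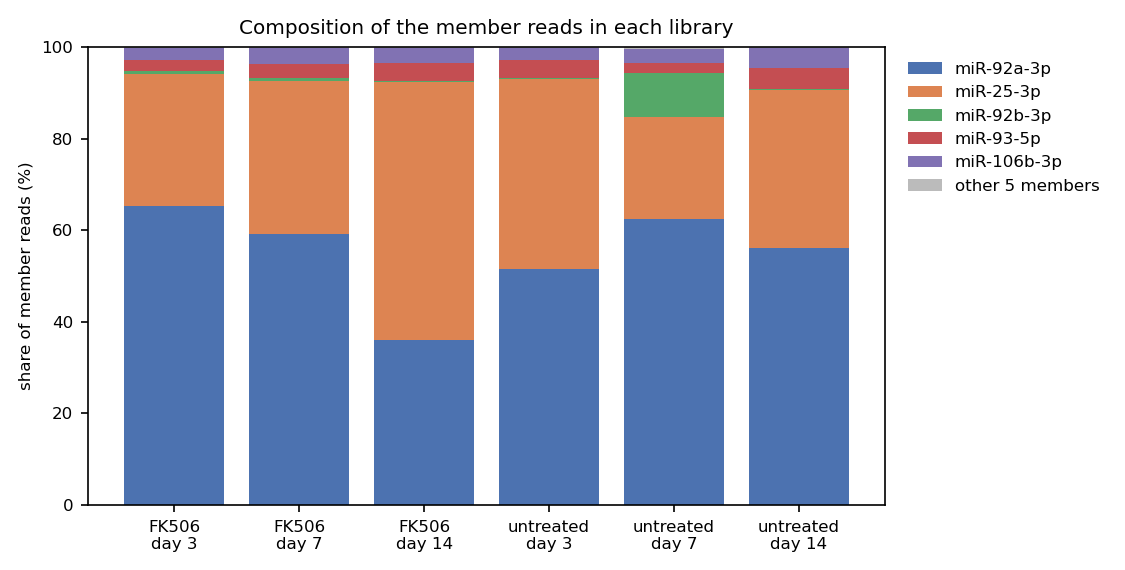
Share of the summed member reads (percent) held by each of the 5 most abundant members, with the remaining 5 stacked on top, in each of the 6 libraries. miR-92a-3p falls to 36.0% in FK506 day 14, and miR-92b-3p reaches 9.73% in untreated day 7.

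The 3 abundant members of the miR-92 seed family followed different sets of miRNAs across the 6 libraries. Likeness was measured as the root mean square difference of log2 TMM-scaled levels, each centred on its own mean over the libraries. This is a description in which libraries and scaling are shared by all entries. Among 146 non-members the nearest to miR-92a-3p were miR-3107-3p (0.17), miR-3107-5p (0.19) and miR-486-5p (0.19), where the median non-member lay at 0.82. The first has 247 to 421 reads per library, and the other 2 are the entries that set the library totals. Nearest to miR-25-3p were miR-16-5p (0.18), the red cell miRNA miR-451a (0.22) and miR-101b-3p (0.24), against a median of 0.85. On the TMM scale the other red cell markers went the other way in FK506 day 14, where miR-25-3p and miR-451a were highest. There miR-486-5p, miR-486-3p, miR-144-3p and miR-144-5p had their lowest TMM-scaled levels. As a share of the library total only miR-486-5p of these was lowest there, and miR-486-3p was highest, at 601 CPM. miR-16-5p had 2549, 2793 and 16659 reads with FK506 and 4598, 2098 and 5121 without, highest and lowest in the same libraries as miR-25-3p. Nearest to miR-92b-3p were miR-127-3p (0.73) and miR-409-3p (0.78), both of the imprinted Dlk1-Dio3 region, and miR-128-1-5p (0.79), from a hairpin of the brain-enriched miR-128, against a median of 1.79. All 3 were highest in untreated day 7, miR-127-3p with 2567 reads there and 74 to 398 elsewhere.

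Between members of that seed family the distance was 0.69 for miR-92a-3p and miR-25-3p, 1.76 for miR-92a-3p and miR-92b-3p, and 2.27 for miR-25-3p and miR-92b-3p. From miR-25-3p to its cluster neighbours it was 0.26 for miR-93-5p and 0.46 for miR-106b-3p, and 0.72 for its own opposite strand miR-25-5p. From miR-92a-3p, outside that cluster, it was 0.60 for miR-93-5p, 0.39 for miR-106b-3p and 0.45 for miR-25-5p. By this measure miR-106b-3p and miR-25-5p lay nearer to miR-92a-3p than to miR-25-3p. The red cell lysis ratio, miR-451a over miR-23a-3p, was 23.5, 13.7 and 26.4 with FK506 and 21.0, 43.6 and 14.5 without. The 43.6 of untreated day 7 rests on 12 reads of miR-23a-3p, and miR-451a had its lowest count there, 523 reads. The part of lysis in these patterns was not tested.

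**Figure D3:**
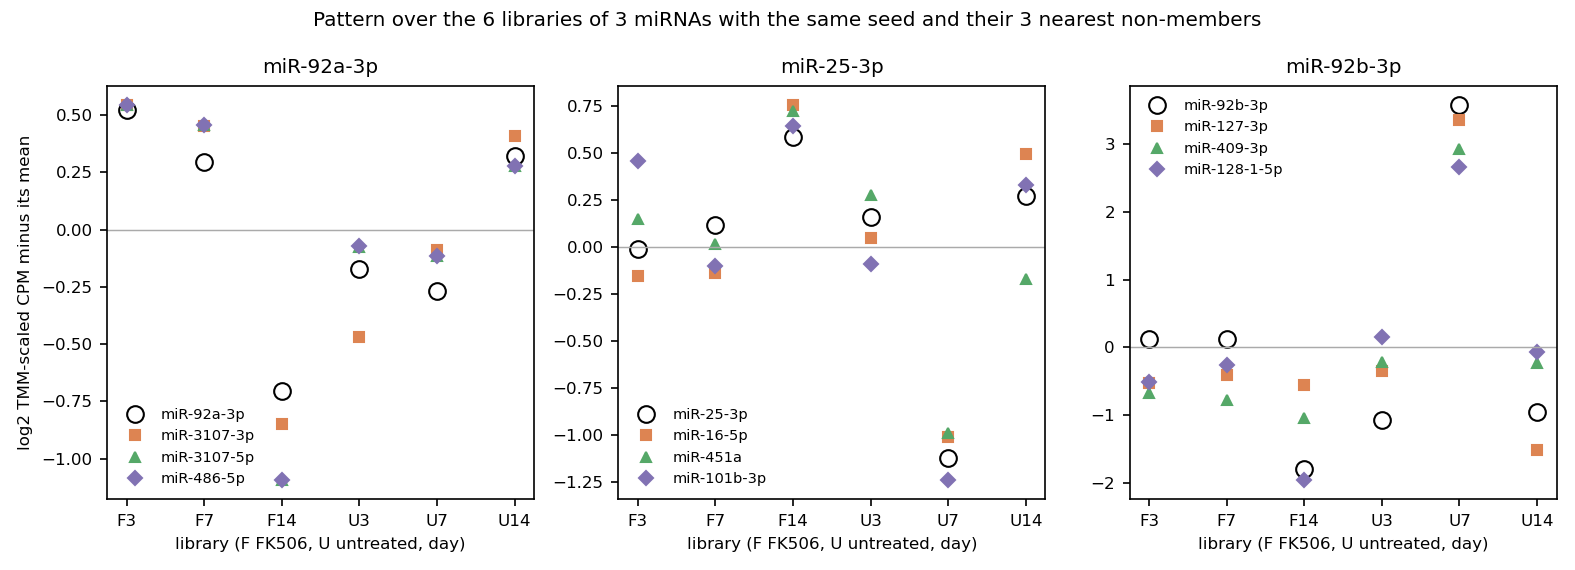
Log2 TMM-scaled level minus its own mean over the 6 libraries (F, FK506; U, untreated; number, day) for miR-92a-3p, miR-25-3p and miR-92b-3p (open circles) and the 3 non-members nearest to each (filled symbols). The lowest library is F14 for miR-92a-3p and U7 for miR-25-3p, while U7 is the highest for miR-92b-3p.

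Within-library ratios compared members without any scaling between libraries. Per 100 reads of miR-92a-3p, miR-25-3p had 44.2, 56.5 and 157 from day 3 to day 14 with FK506, and 80.5, 35.4 and 61.8 without. FK506 was below untreated at day 3 and above it at days 7 and 14, by -0.87, 0.67 and 1.34 on the log2 scale, and no counting intervals of a day overlapped. The mean difference, FK506 minus untreated, was 0.38 (SD 0.97 within FK506 and 0.60 within untreated, n = 3 and 3; two-sided exact permutation p = 0.7), and it was -0.17 without FK506 day 14. miR-92b-3p had 0.816, 0.95 and 0.493 reads per 100 of miR-92a-3p with FK506 and 0.568, 15.6 and 0.440 without. This ratio spanned 35.4-fold over all libraries and 2.16-fold without untreated day 7.

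Over all 6 libraries the Mcm7 cluster products miR-25-3p, miR-93-5p and miR-106b-3p held to each other more closely than miR-25-3p did to miR-92a-3p. Much of that gap went with FK506 day 14. miR-93-5p had 8.46, 9.46 and 7.01 reads per 100 of miR-25-3p with FK506 and 9.12, 9.79 and 12.9 without, a 1.84-fold span. FK506 was lower at all 3 days, by 0.11, 0.05 and 0.88 on the log2 scale, with intervals that overlapped at days 3 and 7 and did not at day 14. Between miR-106b-3p and miR-25-3p the span was 2.38-fold, and between miR-93-5p and miR-106b-3p it was 2.00-fold. The SD of the log2 ratio over the 6 libraries was 0.29, 0.50 and 0.35 for these 3 pairs. For the pair of miR-25-3p and miR-92a-3p, which share a seed and not a cluster, it was 0.75. That pair spanned 4.42-fold, and 2.27-fold without FK506 day 14. Without that library the 3 cluster pairs spanned 1.53-fold, 2.15-fold and 2.00-fold, in the order above. Of the 2 strands of Mir25, miR-25-5p had 0.297, 0.415 and 0.132 reads per 100 of miR-25-3p with FK506, and 0.382, 0.613 and 0.579 without. Over all 6 libraries these strands were looser than the cluster neighbours, with a 4.63-fold span. Without FK506 day 14 their span was 2.07-fold, within the 1.53-fold to 2.15-fold of the cluster pairs. Because the counts of miR-25-5p are 26 to 79 reads, counting error is a larger part of these strand spans.

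**Figure D4:**
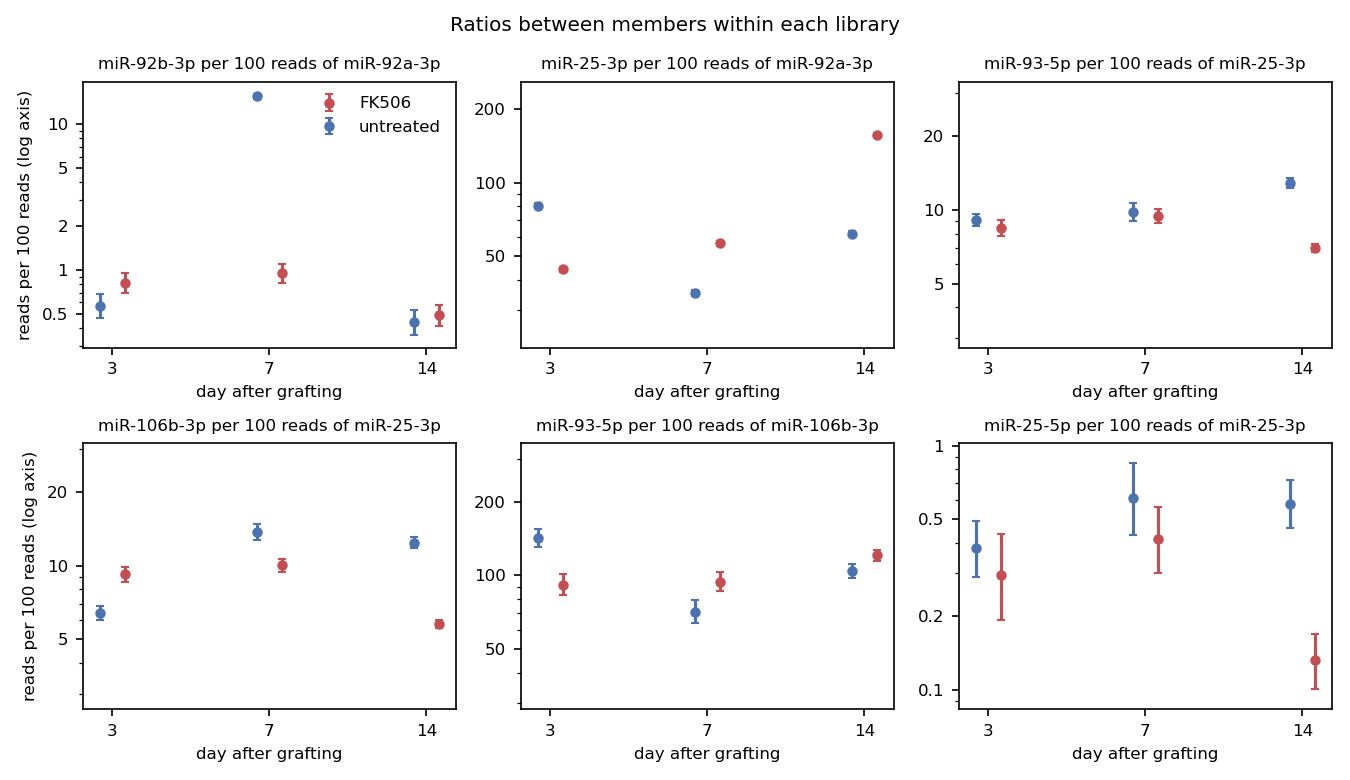
Reads of 1 member per 100 reads of another within the same library, on log axes, by day and arm, with exact 95% binomial intervals (counting error only). The untreated day 7 point for miR-92b-3p lies at 15.6 with the other 5 under 1, and the miR-93-5p to miR-25-3p ratios lie between 7.01 and 12.9.

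Of 10 such ratios compared between the arms, none could reach an unadjusted 0.05, since 3 against 3 libraries allow an exact permutation p of no less than 0.1. The ratio of miR-17-5p to miR-93-5p reached that minimum, higher with FK506 at 3 of 3 days with a mean log2 difference of 0.66 (adjusted p = 0.6 over the 10; two-sided exact permutation test). It rests on 2 to 31 reads of miR-17-5p per library, and the counting intervals of the 2 arms overlapped at every day. The next lowest were 0.2 for miR-93-5p to miR-25-3p and for miR-25-5p to miR-25-3p, both lower with FK506 at all 3 days.

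FK506 and untreated serum were then set against each other at each day by the TMM-scaled log2 ratio with a prior count of 2. A miRNA counted as measured with 50 reads in at least 1 of the 2 libraries, and as higher or lower once its log2 ratio reached 1 or -1, the size rule. With 1 library a side these differences have no replicate check, and the intervals are 95% counting intervals. The 3 lymphocyte markers miR-150-5p, miR-342-3p and miR-155-5p summed to 758 to 1609 CPM with FK506 and 112 to 187 CPM without, and none was at 0. Most of it came from miR-150-5p, which in untreated day 7 gave 82.4 of the 112 CPM. miR-342-3p was higher with FK506 at day 3 only, with 17.2, 14.1 and 7.95 CPM against 11.6, 29.0 and 8.996 CPM, and miR-155-5p had 2 to 8 reads per library. Their part in the members' ratios was not tested.

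At day 3, 6 members were measured and 1 was higher and 0 lower, where 21.2% of the 99 miRNAs measured were higher and 11.1% lower. The member was miR-92b-3p, 2.32-fold higher with FK506 (1.81 to 2.99). Its log2 ratio was 1.20, and 0.60 scaled to the library total, where 0 members were higher and 1 lower, miR-25-5p at -1.09. miR-92a-3p stood at 0.70, miR-106b-3p at 0.36, and miR-25-3p and miR-93-5p at -0.17 and -0.28. The median over the members was 0.09, against 0.04 over all miRNAs measured.

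At day 7, 2 of 5 measured members were higher with FK506 and 1 was lower, against a background of 19.4% higher and 46.5% lower among 129. miR-25-3p was 2.36-fold higher (2.28 to 2.44) and miR-93-5p 2.28-fold higher (2.06 to 2.53). miR-92b-3p was 11.1-fold lower (9.50 to 13.0). miR-92a-3p and miR-106b-3p had log2 ratios of 0.56 and 0.78. The median of the members was 0.78 and that of all measured miRNAs -0.74. Every one of these ratios has the untreated day 7 library as its denominator. With scaling to the library total the ratios of miR-25-3p and miR-93-5p fell short of the threshold, at 0.73 and 0.68, and scaled to the total without the miR-486-5p pair they were 2.31 and 2.26.

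At day 14, 7 members were measured, and 0 were higher and 2 lower, with 20.8% of 130 miRNAs higher and 15.4% lower. miR-25-5p was 3.52-fold lower with FK506 (2.49 to 5.00) and miR-92a-3p 2.04-fold lower (2.00 to 2.07). miR-25-5p stood at -1.75 with TMM and -0.47 scaled to the library total. miR-92a-3p changed sign, from -1.03 to 0.30, and between these scalings the median of all measured miRNAs moved by 1.31. Relative to that median, which was 0.01 with TMM and 1.32 with the total, miR-92a-3p was lower under both. miR-25-3p was at 0.31 with TMM and 1.64 with the total. Scaled to the total, the count of members turned to 2 higher and 0 lower, the 2 being miR-25-3p and miR-18a-3p. The ratios of miR-92b-3p, miR-93-5p and miR-106b-3p were -0.84, -0.57 and -0.79, and these too were positive scaled to the library total, at 0.46, 0.76 and 0.54. Among the other strands miR-19b-3p was 2.16-fold higher (1.5 to 3.18), after a ratio 2.64-fold lower at day 7 (1.63 to 4.45).

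**Figure D5:**
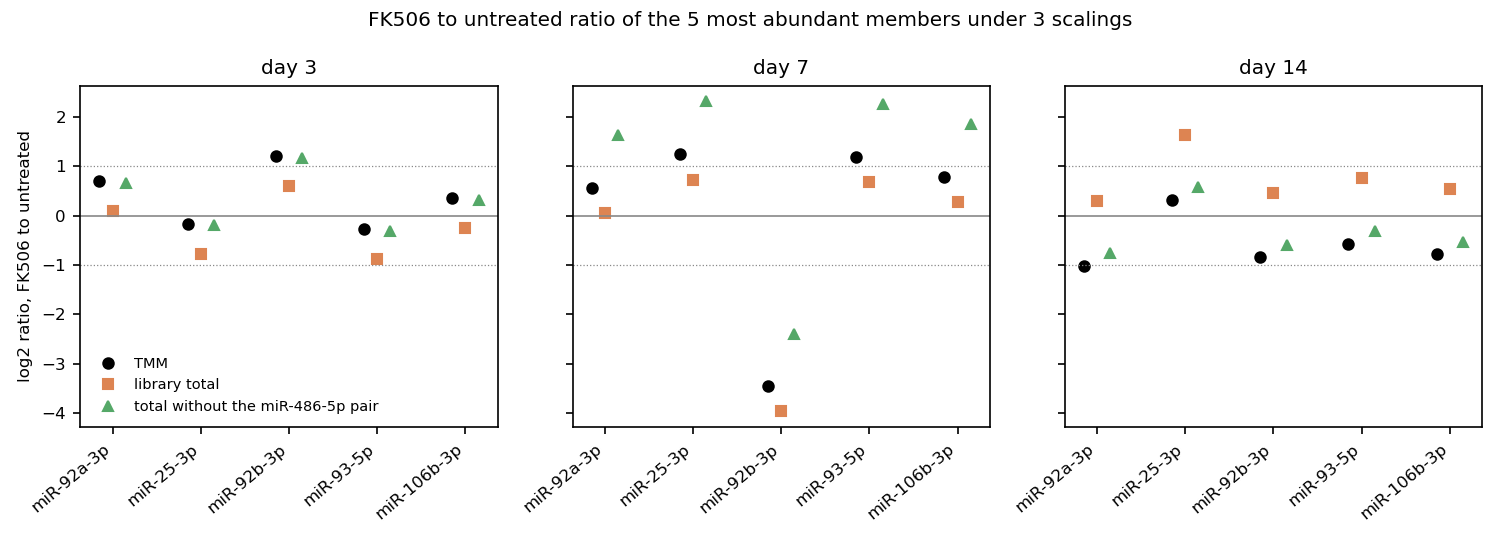
Log2 ratio of FK506 to untreated serum for the 5 most abundant members at each day, with TMM (circles), scaling to the library total (squares) and scaling to the total without miR-486-5p and miR-3107-5p (triangles); dotted lines mark 1 and -1. miR-92b-3p at day 7 is below -1 under all 3 scalings, and miR-92a-3p at day 14 is at -1.03, 0.30 and -0.77.

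Across the 3 days, all 6 libraries entered 1 model of treatment and day, tested by quasi-likelihood in edgeR. Of the 10 members 7 passed the filter on low counts and entered the fit, and miR-17-5p, miR-20a-5p and miR-363-3p did not. None of the 7 passed a Benjamini-Hochberg adjusted p of 0.05, nor did any of the 153 miRNAs tested (0.0%), of which 17 and 0 of the 7 members lay under an unadjusted 0.05. DESeq2 called 3.27% of all miRNAs and limma 0.654%, and neither called a member. In edgeR 5 members had positive and 2 negative values, with a median log2 change of 0.10 against 0.09 for all miRNAs. Each edgeR SE given here was worked back from the log2 change and its F statistic. miR-25-3p had 0.46 ± 0.66 (SE), adjusted p 0.861, and was higher at days 7 and 14. Its change was 0.05 without FK506 day 7 and 0.98 without FK506 day 3. miR-92a-3p had 0.09 ± 0.70, adjusted p 0.968. miR-92b-3p had -1.01 ± 0.92, adjusted p 0.802, and 0.17 without the untreated day 7 library. With 1 library per arm and day, the error term holds whatever the treatment did differently between days, so only changes that hold over days can pass.

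The time course within an arm was compared in the same way. In FK506 serum at day 7 none of 5 measured members differed from day 3 by the size rule, where 3.23% of 93 miRNAs were higher and 6.45% lower. The 5 log2 ratios lay between -0.23 for miR-92a-3p and 0.29 for miR-93-5p. At day 14 with FK506, 0 of 7 were higher and 2 lower than at day 3, against 10.2% and 16.4% of 128. miR-92b-3p was 3.88-fold lower (3.08 to 4.89) and miR-92a-3p 2.34-fold lower (2.30 to 2.39). Scaled to the library total, the log2 ratio of miR-92a-3p went from -1.23 to 0.35 and that of miR-92b-3p from -1.93 to -0.37, while the median of all measured moved by 1.56. By that scaling 3 members were higher and 0 lower, with miR-25-3p at 2.18, miR-93-5p at 1.90 and miR-106b-3p at 1.502.

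In untreated serum at day 7, 1 of 6 measured members was higher and 2 were lower than at day 3, with 47.7% and 14.1% of 128 miRNAs. miR-92b-3p was 25.6-fold higher (21.1 to 31.3), miR-25-3p 2.43-fold lower (2.35 to 2.50) and miR-93-5p 2.26-fold lower (2.05 to 2.49). miR-92a-3p differed by a log2 ratio of -0.10, where the median of all measured miRNAs was 0.92. Scaled to the total without the miR-486-5p pair, miR-92a-3p was at -1.07 and that median at -0.03. At day 14, 1 of 6 was higher and 0 lower, with 10.8% and 6.86% of 102. That member was miR-106b-3p, 2.10-fold higher (1.94 to 2.27), with a log2 ratio of 1.07 that was 0.72 scaled to the library total. miR-92b-3p was back near its day 3 level, at 0.12.

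Day contrasts across both arms called no member with edgeR, and no miRNA at all for day 7 against day 3 (0.0%), day 14 against day 3 (0.0%) or day 14 against day 7 (0.0%), with 7, 0 and 11 of 153 under an unadjusted 0.05. The 1 member under that level was miR-92b-3p at day 14 against day 7, with -3.72 ± 1.10 (SE) and an edgeR adjusted p of 0.572. DESeq2 called this 1 of 153 (0.654%), with an adjusted p of 0.0133. Without the filter on low counts edgeR called 6 of 507 miRNAs, all lower, with an adjusted p of 0.00741 for miR-92b-3p. Behind that mean, the level went from 513 to 21.8 CPM in untreated serum and from 46.3 to 12.0 CPM with FK506. Without the untreated day 7 library the log2 change was -1.40, with an edgeR adjusted p of 0.794.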

How the data were processed

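Serum small RNA was measured in 6 libraries, 1 per treatment and day. The authors deposited raw counts of reads for each mature miRNA, whole numbers not scaled to depth. Per the labels' protocols, RNA of 15 to 30 nt was cut from gels, joined to linkers and sequenced as 50 bp reads with 11 barcoded libraries in a lane, and reads of 15 to 29 nt were matched to miRBase 20 with Bowtie and BLAST. Not given in the sources used here are tool versions, the genome build and the treatment of reads with several matches. Levels of different miRNAs also depend on linker ligation, which was not measured.

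Columns were matched to samples through the series' design text. Counts were scaled by TMM in edgeR 4.0.16 (R 4.3.3) over the 153 entries kept by filterByExpr (minimum count 10), with DESeq2 1.42.0 and limma 3.58.1 as alternatives. Depth was 103058 to 359061 reads per library outside miR-486-5p and miR-3107-5p. Where replicates are days of 1 arm, p-values measure the spread between single libraries, which may be technical. Sequences and positions are RefSeq's, and host genes GENCODE M21's, both GRCm38.

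Named miRNAs are the 10 members, other strands of their clusters with at least 50 reads (the rest as counts, also where a hairpin's strands are compared), the 3 nearest entries to each of 3 members, and marker miRNAs. The members and lists were chosen with earlier results of these data known.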

Additional observations from a re-analysis of the deposited data

Results flagged for a closer look

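miR-92b-3p was higher with FK506 at day 3 and lower at day 7, with log2 ratios of 1.20 and -3.46, both beyond the size rule. The difference between the days was not tested, since each rests on 1 library a side. The day 7 value has the untreated library with 9770 neuron and glia marker reads as its denominator. Within libraries, the ratio of miR-92b-3p to miR-92a-3p differed between FK506 and untreated by 0.52 at day 3, -4.03 at day 7 and 0.17 at day 14 on the log2 scale.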

How the results depend on the processing

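Animals could not be paired, because each treatment and day is 1 library with no replicate numbers. The libraries of the arms are matched by day, and day is a term of the fit. The permutation tests of within-library ratios did not use that matching. Of the ratios past the size rule, 2 changed sign, both of miR-92a-3p scaled to the library total: 0.30 at day 14 and 0.35 for FK506 day 14 against day 3. The count of members past the size rule at day 7, 3 with TMM, was 1 scaled to the library total and 5 without the miR-486-5p pair. At day 14 it was 2, both lower, but with library-total scaling 2 were higher and 0 lower, and it was 1 with median-of-ratios factors, without the pair or with no filter before TMM. At day 3 it was 1, higher, but 1 lower scaled to the library total, and 2 with a read minimum of 20. For FK506 day 14 against day 3 it was 2, both lower, but with library-total scaling 3 were higher and 0 lower. For untreated day 7 against day 3 it was 3, and 6 without the pair. For untreated day 14 against day 3 it was 1, but 0 with median-of-ratios factors, the library total, the total without the pair or no filter, and 2 with a read minimum of 20. Members called at day 14 against day 7 were 0 in edgeR, 1 in DESeq2 (of 1 called among 153 miRNAs) and 1 with no filter (of 6 called among 507). In the fit across days, leaving out each library in turn gave log2 changes from -0.19 to 0.71 for miR-92a-3p, -2.03 to 0.17 for miR-92b-3p, -1.21 to 0.15 for miR-25-5p, -0.45 to 0.53 for miR-93-5p (-0.0535 with no day term) and -0.24 to 0.65 for miR-106b-3p, and 0.05 to 0.98 for miR-25-3p and 0.26 to 1.39 for miR-18a-3p, with adjusted p from 0.485 to 0.998. The day 14 against day 3 change of miR-92b-3p ran from -2.50 to 0.59. Leaving out each library moved the FK506 minus untreated difference of within-library log2 ratios from -0.17 to 0.75 for miR-25-3p to miR-92a-3p, -2.03 to 0.54 for miR-92b-3p to miR-92a-3p, -2.49 to 0.49 for miR-92b-3p to miR-25-3p and -0.26 to 0.24 for miR-93-5p to miR-106b-3p; the other 6 ratios kept their direction. Without miR-92a-3p and miR-25-3p the median share of the miR-92 seed was 5.92% (2.41% to 63.9%) and that of the miR-17 seed 45.9% (14.5% to 54.96%), which follows from leaving them out. The cause of the other shifts was not tested. Counts under 50 limit miR-17-5p, miR-20a-5p and miR-363-3p in every library.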
